A study of Homo sapiens with 9 samples.

Results

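The aryl hydrocarbon receptor (AHR) and its best known target genes were described in an intestinal epithelial line exposed to chemical activators of the hypoxia response. The 7 genes were chosen by symbol from knowledge of the pathway and not by a cut on measured values. Earlier results of these data were known when they were chosen. They are AHR itself, the repressors AHRR and TIPARP, the cytochrome P450 enzymes CYP1A1, CYP1A2 and CYP1B1, and the aldehyde dehydrogenase ALDH3A1. All 7 have an entry among the 60591 symbols of the count table. Messenger RNA was sequenced from undifferentiated Caco-2 cells, a human colon adenocarcinoma line, in 3 groups of 3 libraries that the study's methods call biological replicates. Control cells received fresh medium, the CoCl2 group received 300 μM cobalt(II) chloride, and the OD group received 5 μM of a compound that the labels call an oxyquinoline derivative. All 9 cultures held 0.5% DMSO, and RNA was taken after 24 h. The groups model the receptor pathway only in part, since they come from 1 tumour line, no group received a reference ligand of AHR, and each compound was given at a single concentration, which differs between them.

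AHR is a transcription factor that is activated by binding small molecules, among them dietary plant compounds, microbial and host products of tryptophan, and planar pollutants. Without a ligand it is held in the cytoplasm by HSP90 with cochaperones such as p23 (encoded by PTGES3). With a ligand it enters the nucleus, pairs with ARNT and binds DNA at sites with the core GCGTG. ARNT is also the partner of the hypoxia-inducible factor (HIF) alpha subunits, whose complexes bind at the core ACGTG, so both pathways draw on the same protein. CYP1A1 is the classical readout of AHR activity and in the gut wall it clears the receptor's own ligands. AHRR competes with AHR for ARNT, and TIPARP, a mono-ADP-ribosyltransferase, modifies AHR and promotes its breakdown, so both act as brakes on the receptor.

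RefSeq promoter windows of GRCh38.p14 (250 bases before to 50 after a gene's start) were found for 5 of the 7 genes, in 8 windows. The 250 bases before the start are shown for CYP1A1, the standard readout gene, and for AHR and TIPARP, which had higher levels with both compounds. They lie at chr15:74725529-74725778 on the minus strand, chr7:17298402-17298651 on the plus strand and chr3:156674340-156674589 on the plus strand. Capitals mark GCGTG or ACGTG on either strand, so that CACGC and CACGT are the same cores read on the opposite strand.
CYP1A1: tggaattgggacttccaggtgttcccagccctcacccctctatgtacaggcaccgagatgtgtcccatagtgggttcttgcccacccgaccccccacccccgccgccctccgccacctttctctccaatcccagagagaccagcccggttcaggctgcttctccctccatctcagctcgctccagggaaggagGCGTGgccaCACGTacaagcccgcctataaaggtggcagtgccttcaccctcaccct
AHR: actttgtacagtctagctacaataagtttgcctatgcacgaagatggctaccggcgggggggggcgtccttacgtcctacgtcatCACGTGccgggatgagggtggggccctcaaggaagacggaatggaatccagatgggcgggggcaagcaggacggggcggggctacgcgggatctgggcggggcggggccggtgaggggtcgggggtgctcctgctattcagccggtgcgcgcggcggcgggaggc
TIPARP: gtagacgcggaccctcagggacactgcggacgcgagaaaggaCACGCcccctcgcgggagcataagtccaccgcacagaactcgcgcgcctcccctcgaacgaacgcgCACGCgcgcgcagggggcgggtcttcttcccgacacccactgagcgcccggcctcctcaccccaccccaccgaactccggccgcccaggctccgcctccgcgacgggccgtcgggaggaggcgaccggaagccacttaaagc

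The CYP1A1 stretch held GCGTG at 57 to 53 bases before the start and, on the opposite strand, ACGTG at 48 to 44 bases before it. The AHR stretch held a palindromic CACGTG, which is ACGTG on both strands, at 165 to 160 bases before the start, and a GCGTG lay further on, 37 to 41 bases after the start. The TIPARP stretch held GCGTG 2 times on the opposite strand, beginning 208 and 142 bases before the start, while its other windows held neither core. AHRR had 1 GCGTG in its first window and 2 in its second, and the CYP1A2 window had neither core. Such short words are common. Of all 35116 windows, 36.5% held GCGTG and 21.4% held ACGTG on either strand, and 5.51% held the longer TNGCGTG, which overlaps GCGTG and occurred here only in the first AHRR window. A match is a description of the letters and not a binding site, and the best known response elements of CYP1A1 lie farther upstream than this window. CYP1B1 and ALDH3A1 are named without a promoter.

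The libraries held 15998136 to 24209427 counts each, and 15944 symbols passed the expression filter and were tested. Levels are given in CPM, for which library totals were adjusted by the trimmed mean of M values (TMM), whose factors were 0.77 to 0.795 with CoCl2, 1.11 to 1.12 in control cells and 1.14 to 1.15 with OD. A gene is said to have risen or fallen where edgeR's quasi-likelihood test gave a Benjamini-Hochberg adjusted p under 0.05, and it is called where its log2 fold change was also above 1 in size. All 8 epithelial markers examined (EPCAM, CDH1, KRT8, KRT18, KRT20, VIL1, CDX2 and HNF4A) had at least 10 counts in every library, with a summed level of 10275 to 10750 CPM in control cells, 12131 to 13016 with CoCl2 and 9868 to 10387 with OD. Within them, VIL1 and KRT20 fell with CoCl2 by 2.45 and 1.44 on the log2 scale. The 7 markers of other cell types (PTPRC, PECAM1, COL1A1, COL1A2, VIM, ALB and CYP2E1) summed to 36.1 to 46.4 CPM in control cells, 34.2 to 37.3 with CoCl2 and 39.7 to 43.6 with OD. Of these, PTPRC, COL1A2 and CYP2E1 had at most 3 counts in every library. The other 4 (PECAM1, COL1A1, VIM and ALB) had at least 10 counts in every library, with 233 to 415 for ALB and 135 to 480 for COL1A1. The part of these marker differences in the results below was not tested.

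The genes of the pathway did not move as a block. AHR and TIPARP rose with both compounds, by 3.23-fold and 2.90-fold with CoCl2 and by 1.81-fold and 1.94-fold with OD. CYP1A1 rose 1.55-fold with CoCl2 and fell 1.16-fold with OD, while CYP1B1 did the reverse, falling 1.83-fold with CoCl2 and rising 1.68-fold with OD. ALDH3A1 fell 1.27-fold with CoCl2, and its OD and control libraries overlapped. AHRR and CYP1A2 had too few counts to be tested. In bulk RNA of this kind, fewer cells that express a gene and less of its RNA per cell cannot be told apart.

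Counted against the whole transcriptome, 2 of the 5 tested genes (AHR and TIPARP) were called higher with CoCl2 and 0 were called lower, where 19.9% of all tested genes were called higher and 23.4% lower. With OD, 0 of the 5 were called in either direction by edgeR's quasi-likelihood test and 0 by DESeq2, against 9.09% of all tested genes called higher and 4.16% lower, and 4 of the 5 had an unadjusted p under 0.05. Between CoCl2 and OD, 1 of the 5 (CYP1B1) was called lower with CoCl2 and 0 higher, against 23.8% lower and 17.5% higher among all tested genes. By the adjusted p alone, 5 of 5 differed between CoCl2 and control, 4 of 5 between OD and control and 5 of 5 between CoCl2 and OD, but so did 83.2%, 65.6% and 83.5% of all tested genes. With only 5 genes and such backgrounds, nothing particular to the set is read from these counts, and the sizes and directions of the single genes are given below. The median log2 fold change of the 5 genes was 0.64 with CoCl2 and 0.75 with OD, beside −0.05 and −0.01 for all tested genes. Each median is the value of 1 gene, CYP1A1 with CoCl2 and the sparse CYP1B1 with OD, so the medians do not rank the compounds. Comparisons of CoCl2 and of OD with control share the same control libraries.

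**Figure D1:**
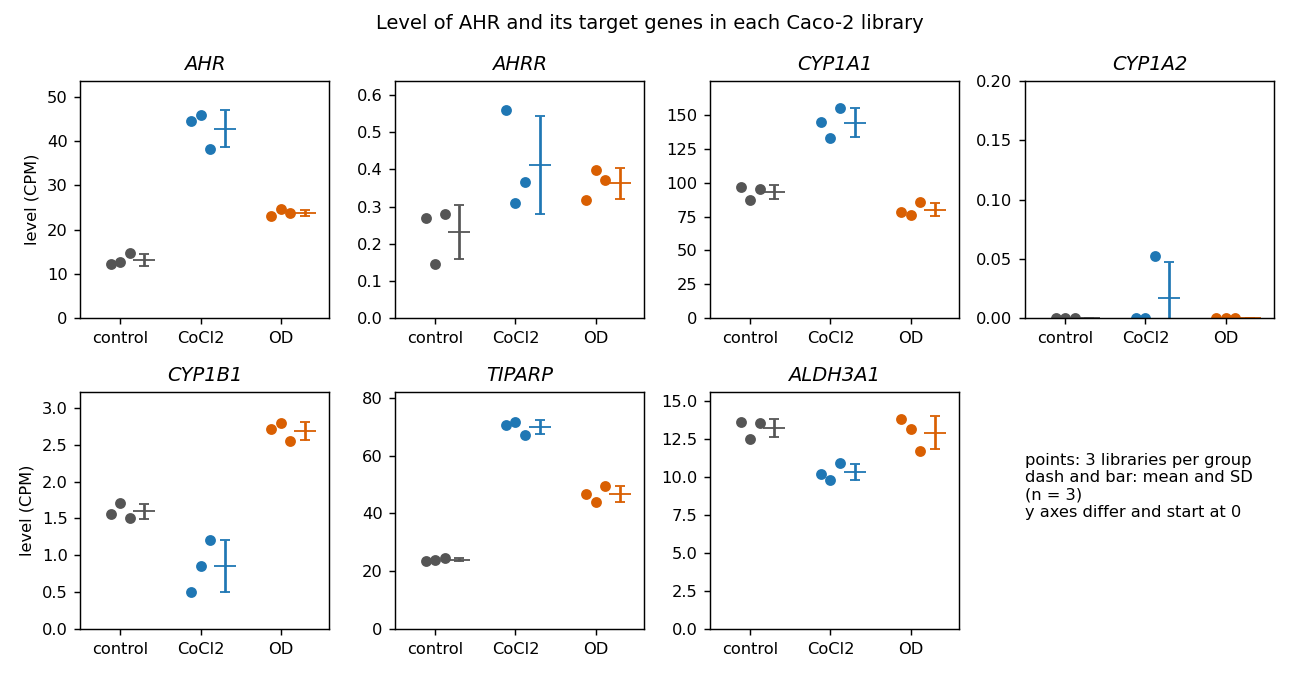
Level in CPM (y axis, linear from 0, a different range in each panel) of the 7 genes in each of the 9 libraries by group (x axis), with the mean and SD (n = 3) beside the points. AHR and TIPARP were lowest in control cells and highest with CoCl2, CYP1A1 was highest with CoCl2, CYP1B1 was highest with OD, and CYP1A2 had 1 count in 1 library.

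AHR, the receptor, had 226, 259 and 263 counts in the control libraries, 716, 592 and 727 with CoCl2, and 510, 554 and 445 with OD. In CPM this was 12.1, 12.7 and 14.7 in control cells, 44.5, 45.7 and 38.1 with CoCl2, and 23.1, 24.6 and 23.7 with OD. The groups did not overlap, and every OD library lay between the control and the CoCl2 libraries. The mean level was 13.2 ± 1.37 CPM in controls, 42.8 ± 4.12 under CoCl2 and 23.8 ± 0.72 under OD (SD, n = 3). The log2 fold change against control was 1.69 with CoCl2 (SE 0.077, 95% interval 1.54 to 1.85, adjusted p = 9.69e-30), which is above that of 90.6% of all tested genes. With OD it was 0.85 (SE 0.081, 95% interval 0.69 to 1.01, adjusted p = 1.44e-14). AHR was also higher with CoCl2 than with OD, by 0.84 on the log2 scale (SE 0.069, adjusted p = 2.29e-17). In the GENCODE 44 annotation of GRCh38, AHR spans bases 16916359 to 17346152 of chromosome 7 on the plus strand, and ENSG00000283321, a gene of the same strand, covers 29.5% of its exonic sequence. Of all stretches of 75 bases in AHR transcripts of that release, 28.6% also occur in that gene. The counts used GENCODE 34, and how the counting treated such reads is not stated. The share of AHR counts affected is therefore not known.

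TIPARP, the ADP-ribosyltransferase that restrains AHR, had 438, 484 and 441 counts in control cells, 1138, 926 and 1279 with CoCl2, and 1026, 991 and 929 with OD. The levels were 23.5, 23.7 and 24.7 CPM in control cells, 70.7, 71.6 and 67.0 with CoCl2, and 46.5, 43.9 and 49.4 with OD. As for AHR, the order was control, OD and CoCl2 with no overlap between groups, and the spread within a group was small beside the steps between them. Without the TMM factors the CoCl2 and OD libraries overlap. CoCl2 replicate 3 had 1279 TIPARP counts of 24209427 in total and OD replicate 3 had 929 of 16387054. The mean was 24.0 ± 0.63 CPM in controls, 69.7 ± 2.43 under CoCl2 and 46.6 ± 2.74 under OD (SD, n = 3). TIPARP rose with CoCl2 by 1.54 on the log2 scale (SE 0.061, 95% interval 1.42 to 1.66, adjusted p = 4.65e-33) and with OD by 0.96 (SE 0.062, 95% interval 0.83 to 1.08, adjusted p = 1.24e-21). The OD change missed the fold threshold narrowly, and without OD replicate 2 it came to 1.00 and was called. CoCl2 exceeded OD by 0.58 (SE 0.055, adjusted p = 5.91e-15). The gene spans bases 156673235 to 156706770 of chromosome 3 on the plus strand, and none of its exonic bases overlap another gene's exons.

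AHRR, the repressor that competes with AHR, was close to the limit of detection. Its counts were 5, 3 and 5 in control cells, 9, 4 and 7 with CoCl2, and 7, 9 and 7 with OD. Summed over 3 libraries this was 13 counts in control cells (exact Poisson 95% interval 6.92 to 22.2), 20 with CoCl2 (12.2 to 30.9) and 23 with OD (14.6 to 34.5), intervals that overlap widely and cover counting error only. In CPM the control libraries lay at 0.147 to 0.280, the CoCl2 libraries at 0.309 to 0.559 and the OD libraries at 0.317 to 0.399. An exact permutation test of these scaled levels gave p = 0.1 (two-sided) for each compound against control, the smallest p that 3 libraries against 3 can give, and p = 0.9 between the compounds. Without the TMM factors the CoCl2 and control libraries overlap. CoCl2 replicate 2 had 4 AHRR counts of 16286502 in total and control replicate 3 had 5 of 15998136. AHRR (chromosome 5, bases 321714 to 438291, plus strand) shares 58.7% of its exonic bases with the readthrough gene PDCD6-AHRR, so even these few counts may have more than 1 source.

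CYP1A1, the P450 enzyme that oxidises planar aromatic compounds and is the most used marker of AHR activity, was by far the most abundant transcript of the set. Its counts were 1798, 1785 and 1705 in control cells, 2328, 1725 and 2958 with CoCl2, and 1728, 1724 and 1610 with OD. The levels were 96.6, 87.4 and 95.5 CPM in control cells, 145, 133 and 155 with CoCl2, and 78.4, 76.4 and 85.6 with OD. On this scale the groups did not overlap, with OD just below control and CoCl2 above both. Without the TMM factors both treated groups overlap control. CoCl2 replicate 2 had 1725 CYP1A1 counts of 16286502 in total and control replicate 1 had 1798 of 16799125. OD replicate 3 had 1610 of 16387054 and control replicate 2 had 1785 of 18298190. The mean was 93.2 ± 5.03 CPM in controls, 144 ± 10.8 under CoCl2 and 80.1 ± 4.84 under OD (SD, n = 3). CYP1A1 rose with CoCl2 by 0.64 on the log2 scale (SE 0.051, 95% interval 0.53 to 0.74, adjusted p = 2.09e-17) and fell with OD by 0.22 (SE 0.052, 95% interval −0.32 to −0.11, adjusted p = 0.000217). The compounds differed from each other by 0.85 (SE 0.051, adjusted p = 6.97e-23), the higher value being that of CoCl2. CYP1A1 (chromosome 15, bases 74719542 to 74725536, minus strand) has no exonic overlap with another gene.

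CYP1A2, a closely related enzyme known mainly from liver, starts 23309 bases from the start of CYP1A1 on the same chromosome and points the other way (bases 74748845 to 74756607, plus strand). It had 0 counts in all control libraries, 0, 0 and 1 with CoCl2 and 0 in all OD libraries. For a sum of 0 the exact Poisson 95% interval reaches 3.69 counts, and the detection floor of 3 counts used here is 0.0587 CPM of unscaled counts over the control libraries and 0.0542 over the OD libraries. No stretch of 75 bases is shared between transcripts of CYP1A1 or CYP1A2 and those of any other gene. The neighbours therefore stood at opposite ends of the set in every group, with at least 1610 counts of CYP1A1 in each library where CYP1A2 was at or next to 0.

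CYP1B1, the third enzyme of the family and the form most often found outside the liver, was sparse. It had 29, 35 and 27 counts in control cells, 8, 11 and 23 with CoCl2, and 60, 63 and 48 with OD. The levels were 1.56, 1.71 and 1.51 CPM in control cells, 0.497, 0.850 and 1.20 with CoCl2, and 2.72, 2.79 and 2.55 with OD. The OD libraries were all above control and the CoCl2 libraries all below it, but the CoCl2 libraries were spread widely. The mean was 1.59 ± 0.105 CPM in controls, 0.850 ± 0.354 under CoCl2 and 2.69 ± 0.123 under OD (SD, n = 3). CYP1B1 rose with OD by 0.75 on the log2 scale (SE 0.202, 95% interval 0.35 to 1.15, adjusted p = 0.000898). With CoCl2 the log2 fold change was −0.87 (SE 0.273, 95% interval −1.42 to −0.32, adjusted p = 0.00304). This fall depended on single libraries. Without CoCl2 replicate 1 it was −0.59 (adjusted p = 0.0566) and without CoCl2 replicate 3 it was −1.28 and called. Between the compounds CYP1B1 was 3.08-fold lower with CoCl2 (log2 fold change −1.62, SE 0.242, 95% interval −2.11 to −1.14, adjusted p = 1.41e-08), and with each of these libraries left out in turn it was −1.34 and −2.03 and still called. CYP1B1 (chromosome 2, bases 38066973 to 38109902, minus strand) overlaps genes of the opposite strand, among them CYP1B1-AS1, over 12.8% of its exonic bases, and whether the counting used strand is not stated.

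ALDH3A1, an aldehyde dehydrogenase that detoxifies reactive aldehydes and belongs to the classical AHR gene battery, had 253, 255 and 241 counts in control cells, 164, 127 and 208 with CoCl2, and 304, 297 and 220 with OD. The levels were 13.6, 12.5 and 13.5 CPM in control cells, 10.2, 9.81 and 10.9 with CoCl2, and 13.8, 13.2 and 11.7 with OD. All CoCl2 libraries were below all others, and the OD and control libraries were intermixed. The mean was 13.2 ± 0.62 CPM in controls, 10.3 ± 0.55 under CoCl2 and 12.9 ± 1.07 under OD (SD, n = 3). ALDH3A1 fell with CoCl2 by 0.35 on the log2 scale (SE 0.095, 95% interval −0.54 to −0.16, adjusted p = 0.000753). With OD its log2 fold change, −0.03, had a 95% interval of −0.20 to 0.15 (adjusted p = 0.797), so a change beyond about these bounds was not seen. CoCl2 was also below OD (log2 fold change −0.32, SE 0.094, adjusted p = 0.00157). ALDH3A1 spans bases 19737984 to 19748943 of chromosome 17 on the minus strand, with 2.53% of its exonic bases overlapped on the opposite strand.

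**Figure D2:**
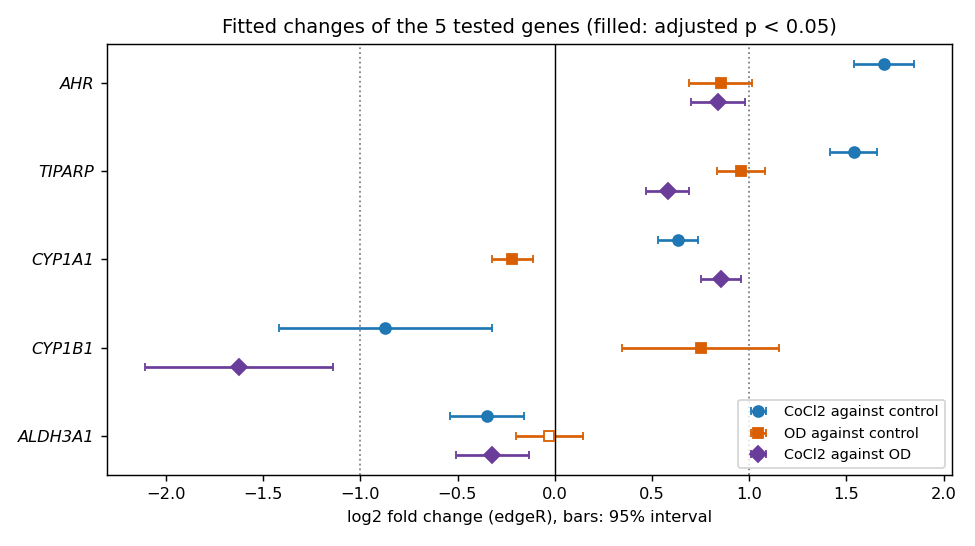
Log2 fold change (x axis, log2 scale) of the 5 tested genes in the 3 comparisons, with 95% intervals from edgeR, filled where the adjusted p was under 0.05, and dotted lines at a log2 fold change of 1 in either direction. AHR and TIPARP lie to the right of 0 in every comparison, whereas CYP1A1 and CYP1B1 lie on opposite sides of 0 in each comparison.

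In control cells the order of levels per kilobase of exon was CYP1A1 (27.7 ± 1.5 CPM per kb), TIPARP (4.99 ± 0.13), ALDH3A1 (3.40 ± 0.16), AHR (1.64 ± 0.17), CYP1B1 (0.265 ± 0.017), AHRR (0.0245 ± 0.0078) and CYP1A2 at 0 (SD, n = 3). The neighbours in this order stood apart by more than their SDs. With the length of the canonical transcript in place of all exons, ALDH3A1 (8.05 CPM per kb) came before TIPARP (6.21), so the order of these genes depends on the length used. With CoCl2, AHR (5.31 ± 0.51 CPM per kb) came above ALDH3A1 (2.66 ± 0.14), but by the canonical transcript the pair lay within their SDs at 6.85 ± 0.66 and 6.28 ± 0.33. CYP1A1 alone took 63.3% to 65.4% of all counts of the 7 genes in control libraries, 51.0% to 56.9% with CoCl2 and 47.4% to 49.4% with OD. TIPARP took 15.9% to 17.2%, 24.6% to 27.4% and 27.2% to 28.5%, so the make-up of the set moved from the enzyme toward the receptor and its brake with both compounds. The control level of CYP1A1 in CPM was above that of 86.4% of tested genes, while AHR lay above 47.7%.

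The scaling of the libraries bears on sizes but on few directions. By library size alone, without TMM factors, the median log2 fold change of all tested genes was −0.55 for CoCl2 against control and −0.60 for CoCl2 against OD. On that scale AHR and TIPARP still rose with CoCl2, by 1.19 and 1.03, CYP1A1 rose by 0.13, CYP1B1 was at −1.37 and ALDH3A1 at −0.85. Relative to the median of all genes, CYP1A1 stood at 0.68 and AHR at 1.74 with CoCl2 under either scaling. Such distances are kept by construction, since a change of scaling shifts all genes by nearly the same amount, and are no independent check. TIPARP no longer differed between CoCl2 and OD by library size alone (0.03, adjusted p = 0.558), although its distance to the median of all genes was 0.63 both ways. AHR and CYP1A1 were then higher with CoCl2 than with OD by 0.29 and 0.31.

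The proteins that hold AHR in the cytoplasm or act with it in the nucleus were examined as a group of their own. With CoCl2, 4 of the 7 tested partners were called higher and 0 lower, beside 19.9% and 23.4% of all tested genes. With OD, 0 were called in either direction by edgeR, beside 9.09% higher and 4.16% lower among all tested genes. All 7 passed both the unadjusted and the adjusted p alone with OD, 4 of them higher and 3 lower. Of all tested genes, 65.6% passed that adjusted p. In the direct comparison, 4 partners were called higher with CoCl2 than with OD, beside 17.5% of all tested genes. The chaperone genes carried most of this. HSP90AA1 rose with CoCl2 (log2 fold change 2.24) and fell with OD (−0.94), and HSP90AB1 did the same (1.11 and −0.78). The cochaperone gene PTGES3 stood at 1.03 with CoCl2 and at −0.41 with OD, while the coactivator NCOA3 rose with both (1.96 and 0.67). ARNT, the partner that AHR shares with the HIF subunits, moved little, by 0.34 with CoCl2 (adjusted p = 4.67e-07) and 0.14 with OD (adjusted p = 0.0259), and ARNT2 had at most 5 counts in any library. The median of the group was 1.03 with CoCl2 and 0.14 with OD, and by library size alone 0.52 with CoCl2, where 2 genes were called. The OD median was 0.09 without OD replicate 1. With CoCl2, 3 partners were called without control replicate 1, without CoCl2 replicate 2, by glmTreat and under either other count filter.

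Among the HIF alpha subunits that also pair with ARNT, EPAS1, which encodes HIF-2α, was called higher with both compounds (log2 fold change 1.30 with CoCl2 and 1.11 with OD). HIF1A stood at 0.19 and −0.54, and HIF3A fell with CoCl2 by 1.61 and had a value of −0.33 with OD. Genes known to respond to HIF (CA9, ADM, NDRG1, PDK1, EGLN3 and BNIP3) served as a comparator. All 5 that were tested were called higher with CoCl2, and 3 of 5 with OD, beside 19.9% and 9.09% of all tested genes. The comparator's medians were 3.34 and 3.22, beside 0.64 and 0.75 for the AHR set, which are the values of CYP1A1 and CYP1B1. With OD the comparator was split, since NDRG1, PDK1 and BNIP3 were called higher, EGLN3 rose by 0.35 and ADM fell by 0.46 on the log2 scale. CA9 had at most 16 counts in a library and was not tested.

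Further genes reported to respond to AHR showed no shared direction. Of 13 tested, 2 were called higher and 1 lower with CoCl2, beside 19.9% and 23.4% of all tested genes. With OD, 0 were called in either direction, beside 9.09% higher and 4.16% lower among all tested genes. Without control replicate 2, 1 was called. With OD, 10 had an adjusted and also 10 an unadjusted p under 0.05, and 65.6% of all tested genes passed the adjusted p. The group's median was 0.16 with CoCl2, which turned to −0.34 by library size alone and was 0.04 without CoCl2 replicate 1 and 0.10 without control replicate 1, and 0.37 with OD. NQO1, the quinone reductase that AHR and NRF2 both induce, was called higher with CoCl2 (2.13) and rose less with OD (0.67), and so was NFE2L2, which encodes NRF2 itself (1.57 and 0.37). The growth factor gene TGFA fell with CoCl2 by 1.57 on few counts (10 to 20 per control library and 2 to 6 with CoCl2). Its relative EREG fell with both compounds, by 0.79 and 0.92. The efflux pump gene ABCG2 rose with both (0.71 and 0.78), the adaptor gene NEDD9 rose with OD (0.91) and stood at −0.06 with CoCl2 (adjusted p = 0.250, edgeR), and UGT1A6 stood at 0.63 and −0.42, with reads of exons that the UGT1A genes share. SERPINB2 and IGFBP1 had at most 9 counts in a library and were not tested.

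**Figure D3:**
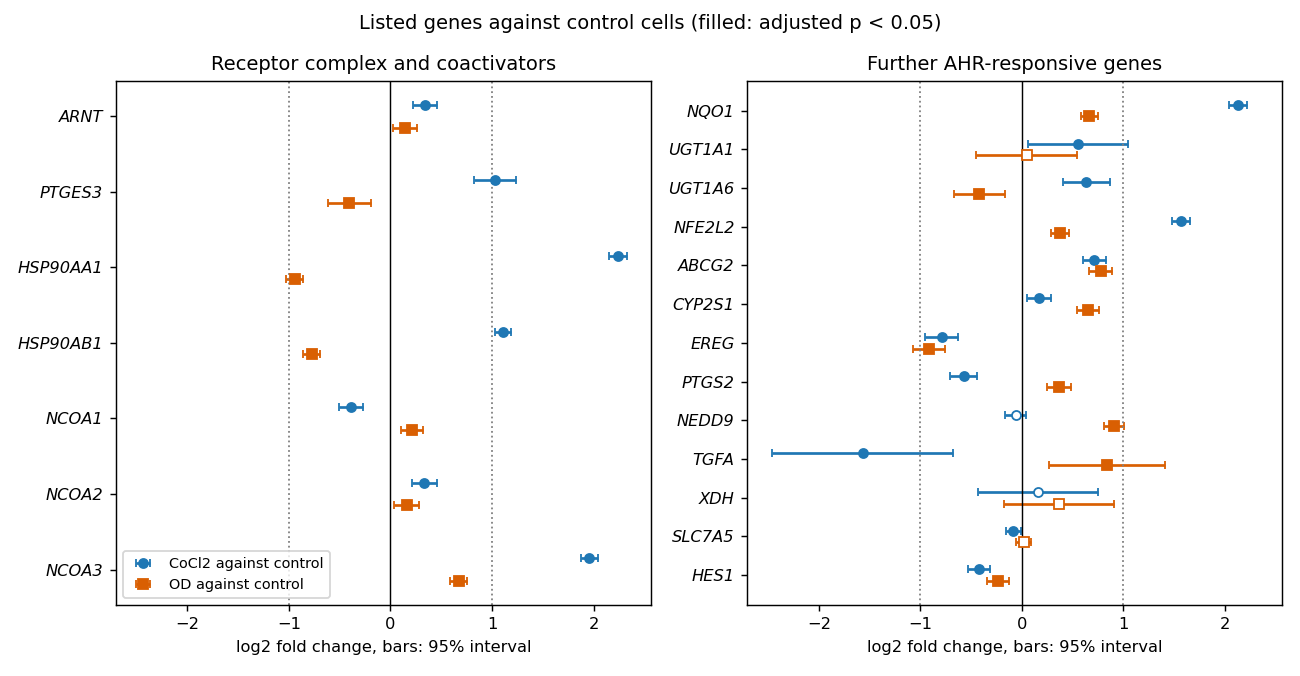
Log2 fold change against control (x axis, log2 scale, 95% intervals from edgeR, filled where the adjusted p was under 0.05) of 7 receptor partners and coactivators (left) and 13 further AHR-responsive genes (right), circles for CoCl2 and squares for OD. HSP90AA1 and HSP90AB1 lie on opposite sides of 0 with the compounds, and the right panel shows no common direction.

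NRF2 shares NQO1 with AHR as a target, so other NRF2-linked genes (HMOX1, GCLM, TXNRD1 and SRXN1) were set beside the AHR set. All 4 were called higher with CoCl2 (median log2 fold change 3.40) and 1, HMOX1, with OD (1.17, group median 0.65). Of all tested genes, 19.9% were called higher with CoCl2 and 9.09% with OD. Enzymes that make or remove tryptophan-derived ligands were mostly sparse, with 4 of 8 tested and IDO1 at 0 counts in every library. With CoCl2, AFMID was called higher (1.37) and DDC lower (−2.15), and with OD, TDO2 and DDC were called lower (−1.98 and −1.05). The share of all tested genes called lower was 23.4% with CoCl2 and 4.16% with OD. The median of the 4 tested enzymes was 0.25 with CoCl2 and −1.01 with OD. The CoCl2 median turned to −0.25 by library size alone and to −0.23 where at least 10 counts were required in every library. With OD, 3 were called without control replicate 3 or without OD replicate 1, and 1 by glmTreat or with at least 10 counts required in every library. The TDO2 value rests on 26 to 31 counts per control library and 5 to 13 with OD.

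The CYP1 genes can also be set beside xenobiotic metabolism that depends on other receptors. With CoCl2, 2 of the 7 tested genes were called lower and 0 higher (CYP2W1 by −2.82 and the nuclear receptor gene NR1I3 by −1.19). With OD, 1 was called lower (CYB5A, −1.26) and 0 higher. Of all tested genes, 23.4% were called lower and 19.9% higher with CoCl2, and 4.16% lower and 9.09% higher with OD. The medians of the 7 xenobiotic genes were −0.37 with CoCl2 and 0.25 with OD. That with CoCl2 was unstable, at 0.57 where at least 10 counts were required in every library, 0.17 without control replicate 1 and 0.02 without CoCl2 replicate 2, and without CoCl2 replicate 1 only 1 gene was called. With OD, 2 were called without control replicate 1 or without OD replicate 1. CYP3A4, CYP2B6, CYP2C19 and NR1I2 had at most 8 counts in a library. POR, the reductase that passes electrons to all microsomal P450 enzymes, CYP1A1 included, rose with CoCl2 by 0.94 and with OD by 0.25. Among 8 relatives of ALDH3A1 that were tested, 1 was called higher with CoCl2 (ALDH3A2, 1.48) and 4 lower (ALDH1A3, ALDH1B1, ALDH3B1 and ALDH7A1, from −2.52 to −1.37), beside −0.35 for ALDH3A1 itself. The other tested relatives were not called, with ALDH1A1 at 0.78, ALDH2 at 0.62 and ALDH9A1 at −0.03. With OD, 1 relative was called lower (ALDH1B1, −1.03) and 0 higher. The shares of all tested genes given above for each compound are also the background for these relatives.

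A search over 13427 tested genes whose mean reached 1 CPM looked for patterns like those of the called genes. Those closest to AHR by Euclidean distance over the 2 log2 fold changes against control were MT1X, a metallothionein gene (1.70 with CoCl2 and 0.85 with OD, distance 0.0108), and JARID2, a chromatin regulator gene (1.67 and 0.87, distance 0.0216). The closest to TIPARP were BCL2L11, which encodes the apoptosis regulator BIM (1.52 and 0.98, distance 0.0262), and MARCHF8, a ubiquitin ligase gene (1.52 and 0.94, distance 0.0293). These distances are below the SEs of the fold changes of AHR (0.077 and 0.081) and TIPARP (0.061 and 0.062). Which genes come closest is therefore uncertain, and MT1X averaged only 1.85 CPM. AHR and TIPARP lay 0.185 apart, and 68 genes were closer to AHR than TIPARP was.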

How the data were processed

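Poly(A) RNA of 9 Caco-2 cultures was sequenced with stranded single-end 75-nucleotide reads. The authors trimmed reads with cutadapt 2.10, checked them with FastQC 0.11.9, mapped them with STAR 2.7.5b on GRCh38.p13 and deposited raw read counts per gene symbol of GENCODE 34, with no normalization. The counting tool, its strand setting and its treatment of reads shared between genes are not given in the sources used here. The counts were analysed in R 4.3.3 with edgeR 4.0.16 (TMM factors, filterByExpr and the robust quasi-likelihood test, fitted to all 9 libraries at once), and p-values were adjusted by the Benjamini-Hochberg method over 15944 symbols. The thresholds (an adjusted p under 0.05 together with an absolute log2 fold change over 1) are those of the study's methods, which used DESeq2. Sparse genes have exact Poisson intervals from scipy 1.17.1. Coordinates, exon lengths and overlaps came from GENCODE 44, matched by symbol, and promoters from RefSeq (GRCh38.p14).

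The genes, the gene lists and the tests were chosen with earlier results of these data known, so no p-value over a list is given. The values of 3 listed genes are not reported here, and the counts and medians of their lists leave them out. Named are all 7 genes, the members of the lists (receptor partners, HIF subunits, further AHR-responsive, tryptophan-related, xenobiotic and aldehyde dehydrogenase genes, HIF-linked and NRF2-linked comparators, cell markers) and, for AHR and TIPARP, the 2 genes with the most similar changes. The fit was tested on simulated data for CoCl2 against control, where it recovered 187 of 200 altered genes among 15445, with 0 wrong signs and 0 false calls. In the data 6891 genes were called in that comparison, so the simulation does not test the scaling under such broad changes. All altered genes were set beyond the fold threshold, so smaller changes were not examined either. Alternatives were RLE factors, library size alone, other count filters, 6 libraries, DESeq2 1.42.0, the replicate number as a block, glmTreat, the adjusted p alone and each library left out. The length of the canonical transcript was added after seeing the data. Nothing in the labels ties replicate numbers to a shared batch. Figures were drawn with matplotlib 3.10.9 in Python 3.11.15.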

Additional observations from a re-analysis of the deposited data

How the results depend on the processing

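Of 252 alternative values for the 15 fold changes of the 5 tested genes, 246 kept their direction and their side of an adjusted p of 0.05. The exceptions were the value of ALDH3A1 with OD, which was not past the threshold and turned to 0.013 by library size alone and ranged from −0.077 (without OD replicate 1) to 0.037 (without OD replicate 3) with 1 library left out, being 0.0098 without control replicate 1, CYP1B1 with CoCl2, which missed it at −0.91 in DESeq2 on 6 libraries (adjusted p = 0.0729) and at −0.59 without CoCl2 replicate 1 (adjusted p = 0.0566), and TIPARP between CoCl2 and OD by library size alone (0.03). With the fold threshold added, TIPARP with OD was also called without OD replicate 2 (1.00), and CYP1B1 with CoCl2 by library size alone (−1.37) and without CoCl2 replicate 3 (−1.28). Over these alternatives the AHR change ranged from 1.19 to 1.78 with CoCl2 and from 0.82 to 0.93 with OD, and that of TIPARP from 1.03 to 1.59 and from 0.92 to 1.00.

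By the adjusted p alone, 13260, 10466 and 13311 genes passed for CoCl2 against control, OD against control and CoCl2 against OD, in place of 6891, 2113 and 6580, and 5, 4 and 5 of the AHR set in place of 2, 0 and 1. For OD against control, 1134 genes were called with at least 10 counts required in every library, a filter that tests fewer genes, and 965 by glmTreat. That filter removes CYP1B1, which leaves 0 of the set called between CoCl2 and OD. Leaving out 1 library at a time gave 0 to 1 called genes of the set with OD, the 1 being TIPARP without OD replicate 2. By library size alone the calls for CoCl2 against control split into 1833 higher and 5839 lower (3167 and 3724 with TMM), and those for CoCl2 against OD into 1351 and 6026 (2790 and 3790 with TMM). The cause of these shifts was not tested beyond the construction of each alternative.

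Deviations from the group means correlated at −0.0178 to 0.0669 over 9 pairs with the same replicate number (median 0.0088). Over 18 pairs with different numbers they correlated at −0.0689 to 0.0625 (median −0.00748). Whether libraries of the same number shared a batch cannot be told from these ranges with 3 libraries per group. With the replicate number as a block, 6901, 2115 and 6568 genes were called, and still 2, 0 and 1 of the set. Depth limits AHRR and CYP1A2, which did not pass the expression filter. Fits without that filter and DESeq2 included them, but their fold changes are not given here. Depth also limits CYP1B1, whose SE of 0.273 with CoCl2 compares with 0.051 for CYP1A1.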

Other observations

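The antisense RNA genes next to members of the set were examined after their values had been seen. TIPARP-AS1 lies on the minus strand of chromosome 3 (bases 156671859 to 156674446). It spans the GENCODE 44 start of TIPARP (base 156673235) and ends inside the promoter stretch shown above, before the RefSeq start used there. TIPARP-AS1 had 17, 13 and 14 counts in control cells, 3, 0 and 2 with CoCl2, and 4, 6 and 6 with OD. All control libraries had more counts than all treated libraries, the opposite order to that of TIPARP. No test is given, since control was the only group in which every library had at least 10 counts. The exons of TIPARP and TIPARP-AS1 do not overlap in GENCODE 44. CYP1B1-AS1, opposite CYP1B1, had 2, 1 and 2 counts in control cells, 4, 2 and 0 with CoCl2, and 7, 8 and 11 with OD, too few to be tested. All OD libraries were above all others for this RNA as they were for CYP1B1, with which it shares bases on the opposite strand, and without a stated strand setting the reads of the pair cannot be told apart.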
